A study of Owenia fusiformis with 11 samples.

Results

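In 42 genes of the annelid Owenia fusiformis, reads were distributed over the gene's transcripts in a different way in the juvenile than in the competent larva. These genes were selected on that difference itself. A gene was the identifier before its numeric suffix in the deposited expression table, the suffix was the number of the transcript, and the share of a transcript was its normalized read value divided by the sum over the gene's transcripts in the same library. A gene was included when at least 1 transcript had a share in the juvenile at least 40 percentage points above, or at least 40 points below, its share in each of both competent larva libraries. Only genes with 2 or more transcripts and a sum of at least 500 normalized reads in each of the 3 libraries could be included, which held for 1872 of the 26960 genes in the table. The 42 genes made up 2.24% of these 1872 genes, and since shares chose them, the shares and totals below are a description of the 3 libraries with no test.

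RNA-seq was performed on whole competent larvae at 3 weeks post fertilization (2 libraries, replicates 1 and 2) and on juveniles labelled 3 weeks plus 1 h (1 library, replicate 1). Larvae were reared in artificial sea water on mixed algae, and a small amount of mud was added to trigger metamorphosis. Per the study's methods each sample pooled many larvae from a single in vitro fertilization, and samples carrying the same replicate number were paired in this way. The series also holds 8 ATAC-seq libraries, which were not used here. With 1 juvenile library no difference has a replicate check on the juvenile side, and in RNA from whole animals fewer cells of a type and less RNA per cell cannot be told apart.

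A gene can give rise to several transcripts through alternative promoters, alternative splicing or alternative polyadenylation, and these transcripts can encode different proteins or carry different untranslated regions. The share of a transcript can shift while the output of the gene stays level, or it can shift because a single transcript is lost or added. Owenia fusiformis has a feeding planktonic larva, the mitraria, in which the trunk of the future worm grows inside the larval body, and at metamorphosis the larval swimming and feeding structures are lost and the juvenile takes up life in the sediment.

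The 3 libraries had similar sums of normalized reads over all transcripts, 44094069 in the juvenile, against 39675427 and 36714310 in competent larva replicates 1 and 2. The 42 genes held 0.897% of these reads in the juvenile, against 0.966% and 1.04% in the competent larva libraries. Together they had 112 transcripts, of which 3 were listed at 0 in all 3 libraries. None of the identifiers matched the RefSeq gene table (0 of the 42), so the genes are described by their identifiers, without names, functions or sequences. Values are reads and not corrected for transcript length, so a share is a share of the gene's reads and not of its RNA molecules.

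The largest change of a gene, taken as the one nearer to 0 of the differences from both competent larva libraries, lay between 40.9 and 88.6 percentage points, with a median of 46.7 points. In 17 of the 42 genes it was 50 points or more. Between both competent larva libraries the largest share difference of the same genes lay between 0.223 and 34.0 points, with a median of 8.83 points, and in each of the 42 genes it was smaller than the change to the juvenile. The selection favours this, since a juvenile share 40 points or more from both larval shares on the same side leaves these less room to differ. For the other 1830 genes the median change to the juvenile was 2.94 points and the median difference between the competent larva libraries was 4.32 points. These medians are unlike measures, since the change takes the difference nearer to 0 and is 0 where the signs disagree. A like measure is the percent of a gene's reads to reassign between sets of shares. Its medians over all 1872 genes were 5.89% and 7.41% (juvenile against replicates 1 and 2) and 4.52% (between the larval libraries). The competent larva libraries themselves differed by 40 points or more in 9 genes (0.481% of the 1872), none of which was among the 42, an absence that the selection also favours. With only replicate 2 as the larval library 91 of 1908 genes would have been included, and with only replicate 1 there would have been 49 of 2014. All 42 are among them each time by construction, since leaving out a library only removes a condition. Only 4 of the 42 genes differed by more than 20 points between the larval libraries, namely OFUSG05631 (34.0 points), OFUSG10091 (24.0 points), OFUSG17174 (21.7 points) and OFUSG04991 (20.6 points).

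**Figure D1:**
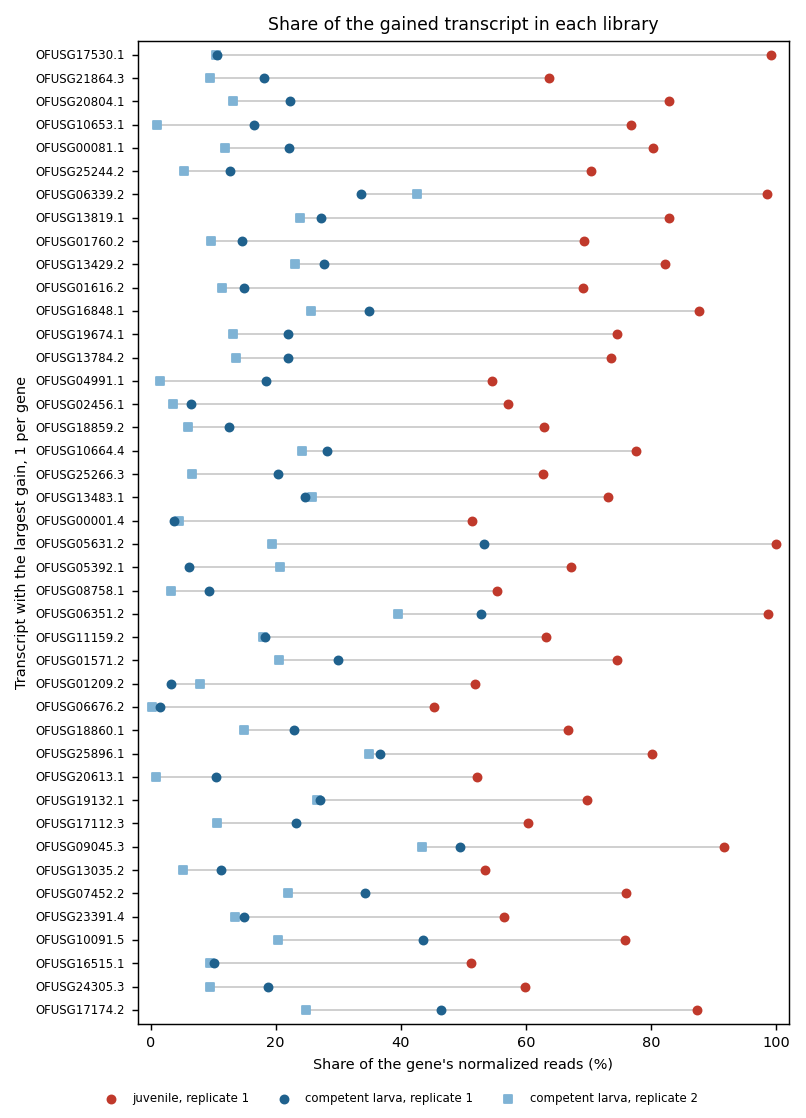
Share of the gene's normalized reads (x axis, percent) taken by the transcript with the largest gain, for each of the 42 genes (y axis, ordered by the largest change of the gene) in the juvenile library (red circles) and competent larva replicates 1 (dark blue circles) and 2 (light blue squares). The juvenile point lies to the right of both larval points in every gene, which the selection requires for nearly all of them, and the gap between the larval points is widest in OFUSG05631 at 34.0 points.

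**Figure D2:**
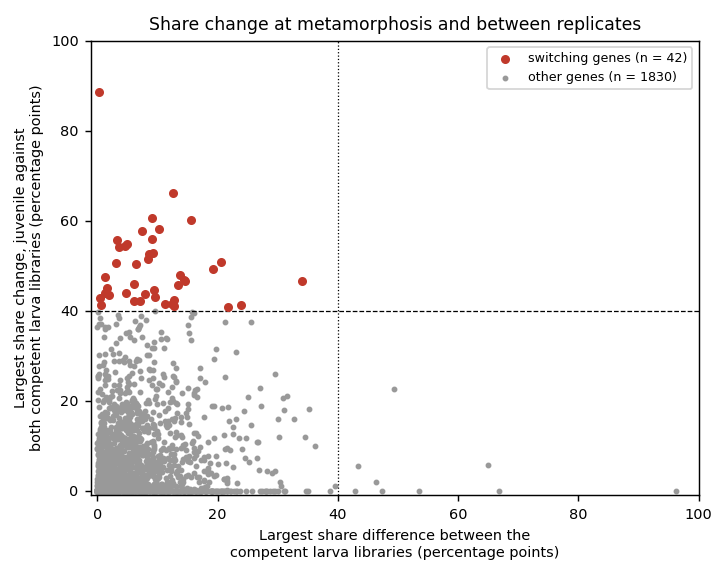
Largest share change of a gene in the juvenile against both competent larva libraries (y axis, percentage points) against the largest share difference between the competent larva libraries (x axis, percentage points), for the 42 selected genes (red) and the other 1830 genes (grey). Dashed and dotted lines mark 40 points, and all red points lie left of the dotted line, which the selection favours, while 9 grey points lie right of it.

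The largest change was that of OFUSG17530. Its transcript 1 had 12063 normalized reads in the juvenile, against 185 and 146 in competent larva replicates 1 and 2. Its transcript 2 had 96.5 in the juvenile, against 1555 and 1261 in the competent larvae. Transcript 1 thus held 99.2% of the gene's reads in the juvenile, against 10.6% and 10.4% in the larvae, and the larval libraries lay within 0.223 points of each other. In this gene both transcripts moved, in opposite directions, and the gene total was 6.99-fold that of the nearer larval library.

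In OFUSG21864, which has 3 transcripts, the change was a loss of 66.2 points by transcript 1. That transcript had 194 normalized reads in the juvenile, against 4945 and 5467 in the competent larva libraries. Transcript 3, which led in the juvenile with 63.6% of the reads, had 1133 normalized reads there, against 1159 and 581. Transcript 2 had 453 normalized reads in the juvenile, against 306 and 41.6, and held 25.5% of the reads, against 4.77% and 0.683%. The own value of transcript 3 was therefore at the upper end of the larval values and that of transcript 2 above both. In number of reads the juvenile differed mainly by a low transcript 1.

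OFUSG20804 had a similar form with its 2 transcripts. Transcript 2 had 206 normalized reads in the juvenile, against 2984 and 2326 in the larvae. Transcript 1 had 999 in the juvenile, against 854 and 353, and its share was 82.9%, against 22.2% and 13.2%. The juvenile was low for the transcript that led in both larval libraries.

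OFUSG10653 was of the other form. Its transcript 1 had 8913 normalized reads in the juvenile, against 767 and 23.9 in competent larva replicates 1 and 2, which differed widely from each other. Its transcript 2 had 2691 in the juvenile, against 3862 and 2337, so the juvenile value lay between both larval values. The share of transcript 1 was 76.8% in the juvenile, against 16.6% and 1.01%, and the change rested on a high juvenile value of that transcript alone.

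Of the genes with the next largest changes, OFUSG00081 changed by 58.1 points. Its transcript 2 had 325 normalized reads in the juvenile, against 5100.2 and 6455 in the larvae, and its transcript 1 had 1327 in the juvenile, against 1453 and 869. OFUSG25244 changed by 57.7 points, with 339 normalized reads of transcript 1 in the juvenile, against 4060.0 and 5348, and 808 of transcript 2, against 594 and 306. In both genes the larval leading transcript was low in the juvenile. The other transcript lay between its larval values in OFUSG00081 and above both in OFUSG25244.

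OFUSG06339 showed a near-complete loss. Its transcript 1 held 1.41% of the reads in the juvenile (13.8 normalized reads), against 66.4% and 57.4% in the larvae (1374 and 775 normalized reads). Transcript 2 had 967 normalized reads in the juvenile, against 696 and 576. With a fixed definition of at most 5% on one side and at least 50% on the other, 3 of the 42 genes were near complete. Any of the 1872 genes that meets this definition against both larval libraries also passes the selection threshold. The same 3 genes are therefore the only ones among all 1872 by construction, and the count is not a separate result. Transcripts OFUSG17530.2 and OFUSG06339.1 were at or under 5% in the juvenile. OFUSG00001.4 was at or under 5% in both larval libraries, with a share of 51.4% in the juvenile, against 3.74% and 4.57%.

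OFUSG13819 changed by 55.8 points, with 379 normalized reads of transcript 2 in the juvenile, against 3235 and 3326 in the larvae. OFUSG01760 changed by 54.7 points, with 223 normalized reads of transcript 1 in the juvenile, against 1681 and 2221. OFUSG13429 changed by 54.5 points, with 372 normalized reads of transcript 1 in the juvenile, against 3740.1 and 4056. In these genes the larval libraries were close to each other for the lost transcript, and the juvenile lay far below both.

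OFUSG01616 changed by 54.1 points. Its transcript 1 had 2233 normalized reads in the juvenile, against 24476 and 24960.2 in the larvae, and its transcript 2 had 4999.6 in the juvenile, against 4320.4 and 3202. OFUSG16848 changed by 52.8 points. Its transcript 1 had 963 normalized reads in the juvenile, against 476 and 263, and its transcript 2 had 135, against 888 and 764. In OFUSG16848 the juvenile was thus high for one transcript and low for the other, with a gene total of 1099 in the juvenile that lay between the larval totals of 1364 and 1027.

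Genes were grouped by which transcripts passed the 40-point threshold. In 33 genes at least 1 transcript gained and another lost 40 points or more, and 28 of these genes have only 2 transcripts, for which any gain is an equal loss of the other. In 6 genes (OFUSG10664, OFUSG13483, OFUSG11159, OFUSG06676, OFUSG23391 and OFUSG24305) a transcript gained that much while no single transcript lost as much. In the remaining 3 (OFUSG04991, OFUSG17112 and OFUSG10091) a transcript lost that much while no single transcript gained as much against both larval libraries. In all, 75 transcripts passed the threshold, 39 as gains and 36 as losses.

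A new leading transcript, that is one with the highest share in the juvenile where another led in both competent larva libraries, was found in 36 of the 42 genes (85.7%), against 212 of all 1872 genes (11.3%). This measure comes from the same shares as the selection, so the higher proportion is not a separate result. In each of the 6 genes without one (OFUSG05631, OFUSG06351, OFUSG20613, OFUSG17112, OFUSG09045 and OFUSG23391) the larval libraries were led by different transcripts. In OFUSG06351, for example, transcript 2 held 98.7% of the reads in the juvenile, against 52.9% in competent larva replicate 1 and 39.5% in replicate 2. The leading transcript held a median of 70.2% of the reads of the 42 genes in the juvenile, against 71.2% and 78.7% in the larvae. Over all 1872 genes these medians were 74.9%, against 76.0% in each larval library.

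A share can shift because the lost transcript is lower, because the gained transcript is higher, or both, and the own values of the transcripts distinguish these. For each gene the transcript with the largest loss and the one with the largest gain were compared with both larval libraries, with over 2-fold against each library as the limit. In 23 genes the lost transcript was over 2-fold lower in the juvenile than in both larval libraries, with the gained transcript not past the limit. In 14 genes the lost transcript was lower and the gained transcript was higher, and in 5 genes only the gained transcript passed, as higher. The lost transcript was thus lower in 37 of the 42 genes and the gained one higher in 19. Against competent larva replicate 2 alone, only the lost transcript passed in 17 genes and both passed in 20. Over all 4683 transcripts of the 1872 genes, 10.4% were over 2-fold lower and 10.8% over 2-fold higher in the juvenile, so lower and higher values were about equally frequent among all transcripts. These percentages count every transcript and not the one with the largest loss or gain, so they are not a like measure for the 42 genes. On the scale of log2(value + 10) the median difference, juvenile minus the larval mean, was -3.12 for the lost transcripts and 1.00 for the gained ones. These own values enter the selection through the shares and are given as a description.

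**Figure D3:**
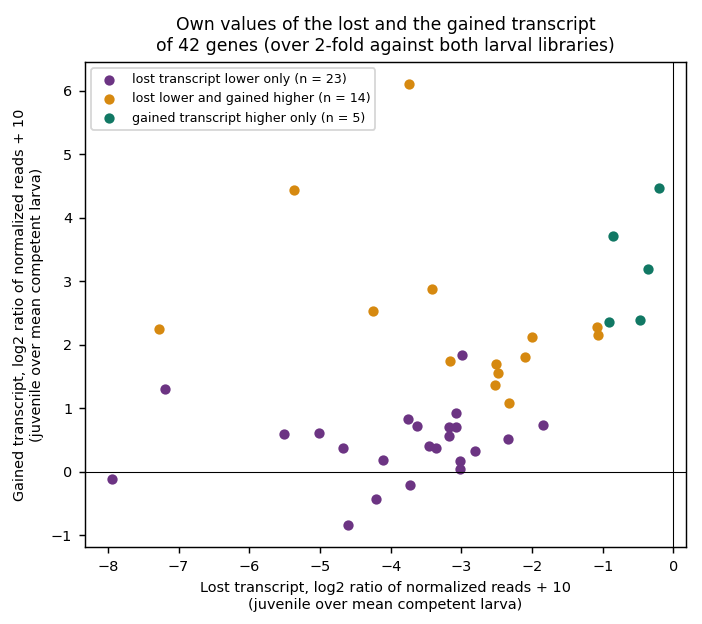
Own values of the lost transcript (x axis) and the gained transcript (y axis) of the 42 genes, each as the log2 ratio of normalized reads + 10, juvenile over the mean of the competent larva libraries. Purple points are the 23 genes in which only the lost transcript passed 2-fold (lower), orange the 14 in which both passed, and green the 5 in which only the gained transcript passed (higher). Purple points lie lower on the y axis than every green point, and green points lie within 1 log2 unit of 0 on the x axis.

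The 5 genes in which only the gained transcript passed were OFUSG10653, OFUSG02456, OFUSG25896, OFUSG13035 and OFUSG16515. In OFUSG16515, transcript 1 had 3058 normalized reads in the juvenile, against 601 and 579 in the larvae, and transcript 2 had 2904 in the juvenile, against 5359 and 5559. Its gene total was nearly the same in all libraries, with 5962 in the juvenile, against 5961 and 6138, so the shares differed at a nearly level total. In OFUSG02456, transcript 1 had 1788 normalized reads in the juvenile, against 161 and 93.3. Its transcript 2 had 1343, against 2304 and 2560, so it was below both larval values but short of the 2-fold limit. In OFUSG13035, transcript 2 had 2228 in the juvenile, against 341 and 128. Each of these genes has 2 transcripts, and the juvenile was high for the transcript that was minor in both larval libraries.

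Both transcripts passed in OFUSG17530, OFUSG16848, OFUSG18859, OFUSG10664, OFUSG25266, OFUSG13483, OFUSG00001, OFUSG05392, OFUSG08758, OFUSG11159, OFUSG01209, OFUSG06676, OFUSG20613 and OFUSG23391. OFUSG01209 had 1731 normalized reads of transcript 2 in the juvenile, against 206 and 579 in the larvae, and 1605 of transcript 1 in the juvenile, against 6219.6 and 6706. OFUSG05392 had 506 normalized reads of transcript 1 in the juvenile, against 98.2 and 176, and 247 of transcript 2, against 1513 and 678. OFUSG08758 had 2221 of transcript 1 in the juvenile, against 973 and 379, and 1785 of transcript 2, against 9379 and 11139. In OFUSG01209 and OFUSG08758 the transcripts had nearly equal values in the juvenile, where in both larval libraries one of them held at least 90.6% of the reads.

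Among the 23 genes with only a lower lost transcript, the gained transcript was not over 2-fold from both larval libraries. In OFUSG01571, transcript 2 had 3822 normalized reads in the juvenile, against 3427 and 3404, while transcript 1 had 1300.3, against 8032 and 13187. In OFUSG07452, transcript 2 had 3699.9 in the juvenile, against 3894 and 3302, while transcript 1 had 1169, against 7435 and 11719. The juvenile value of the gained transcript was close to both larval values in OFUSG01571 and between them in OFUSG07452. In OFUSG09045 the gained transcript 3 was itself below both larval libraries, with 627 in the juvenile, against 853 and 839, while transcript 2 was lower still, with 41.2 in the juvenile, against 820.5 and 1058.

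OFUSG04991 is one of the genes whose larval libraries stood apart. Its transcript 1 had 1456 normalized reads in the juvenile, against 731 in competent larva replicate 1 and 66.7 in replicate 2, and it held 54.5% of the reads, against 18.5% and 1.54%. Its transcript 2 had 385 in the juvenile, against 2576 and 3707. The juvenile was below both larval libraries for transcript 2 and above both for transcript 1. OFUSG05631 and OFUSG17174 had the same order of libraries, since the gained transcript held 100.0% of the reads of OFUSG05631 in the juvenile, against 53.3% in replicate 1 and 19.4% in replicate 2. In OFUSG17174 it held 87.4%, against 46.5% and 24.8%.

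The larval libraries were nearest to each other, after OFUSG17530, in OFUSG19132 and OFUSG16515. In OFUSG19132 transcript 1 had 390.5 normalized reads in the juvenile, against 239.7 and 223, and transcript 2 had 169, against 645 and 614. The juvenile lay well outside the larval pair for both transcripts, which differed by 0.452 points in share between the larval libraries. The gene totalled 559 in the juvenile, against 885 and 836, close to the minimum sum of 500.

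In OFUSG19674 transcript 1 had 3089 normalized reads in the juvenile, against 1878 and 1892, and transcript 2 had 1050.1, against 6691 and 12366. In OFUSG13784 transcript 2 had 1068 in the juvenile, against 734 and 701, and transcript 1 had 382, against 2593 and 4453. The gained transcripts of both genes were alike in both larval libraries, and the larval difference lay in the lost ones.

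Gene totals were mostly lower in the juvenile. The total was over 2-fold lower than in both larval libraries in 19 of the 42 genes (45.2%), where 6.89% of all 1872 genes were lower by that much. It was over 2-fold higher in 3 (7.14%), where 5.72% of all genes were. In the other 20 genes it was past 2-fold in neither direction. With the libraries rescaled to an equal sum, 23 of the 42 totals were lower and 2 higher by that much, where 9.08% and 4.17% of all genes were. With an equal median ratio they were 22 and 2, where 7.85% and 5.07% of all genes were. Without a fold limit, the juvenile total was below both larval totals in 32 of the 42 genes, above both in 8 and between them in 2, and it was below both in 30.9% of all 1872 genes. The median log2 ratio of totals, juvenile over the larval mean, was -1.01 (range -2.17 to 2.95), against 0.11 over all 1872 genes. Totals and shares use the same reads of the same 3 libraries, and a lower value of a leading transcript lowers both, so these counts are no independent evidence.

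**Figure D4:**
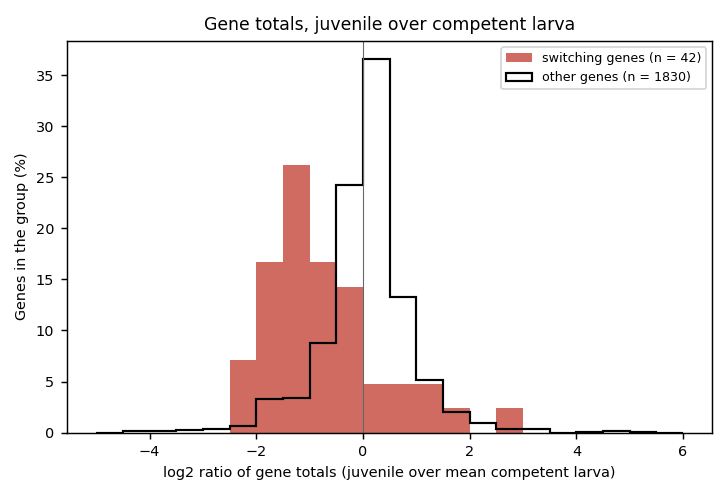
Distribution of the log2 ratio of gene totals, juvenile over the mean of the competent larva libraries (x axis, log2), as percent of the genes in each set (y axis), for the 42 selected genes (filled, labelled switching genes) and the other 1830 genes (line). The filled bars lie mostly below 0, with a median of -1.01, and the 3 genes over 2-fold higher lie among the bars above 1.

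The 3 genes with a higher total were OFUSG17530, OFUSG10653 and OFUSG25896, of which OFUSG25896 was no longer past 2-fold under either rescaling. OFUSG17530 totalled 12159.7 normalized reads in the juvenile, against 1739 and 1407 in the larvae. OFUSG10653 totalled 11604 in the juvenile, against 4629.8 and 2361, or 2.51-fold the nearer larval library. OFUSG25896 totalled 35316 in the juvenile, against 17032 and 13119, or 2.07-fold the nearer one. In OFUSG25896 the higher total came with transcript 1, which had 28334 normalized reads in the juvenile, against 6258 and 4576, whereas transcript 2 had 6982, against 10774 and 8542.

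The totals that were lowest relative to the nearer larval library were those of OFUSG25244, OFUSG00081 and OFUSG01616, and relative to the larval mean that of OFUSG10091 was the lowest (6461 in the juvenile, against 24958 and 33287). The total of OFUSG25244 was 1147 in the juvenile, against 4654 and 5653 in the larvae, 4.06-fold lower than the nearer library. That of OFUSG00081 was 1653 in the juvenile, against 6553 and 7324, 3.97-fold lower. For OFUSG01616 it was 7232, against 28797 and 28162, 3.89-fold lower. OFUSG25244, OFUSG00081 and OFUSG01616 have 2 transcripts each, and in each the juvenile was low for the transcript that led in the larvae.

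Of the 42 genes, 28 have 2 transcripts in the table, 4 have 3, 6 have 4 and 4 have 5. Genes with 2 transcripts made up 66.7% of the 42 and 70.6% of the other 1830. Among the 10 genes with 4 or 5 transcripts, OFUSG11159 was named for its large number of reads, which also depends on transcript length. It totalled 212246 normalized reads in the juvenile, against 108762 and 91739. Its 5 transcripts had nearly even shares in the larvae, of 22.01% at most in replicate 1 and 22.4% at most in replicate 2. In the juvenile, transcript 2 alone held 63.3%, against 18.3% and 18.1%, with 134296 normalized reads, against 19866 and 16563. Transcript 1 held 0.983% in the juvenile, against 22.01% and 22.4%, with 2087 normalized reads, against 23939 and 20579.7. The other transcripts lay between, at 5.54%, 17.4% and 12.8% in the juvenile for transcripts 3, 4 and 5. Reads that fit several overlapping transcripts are divided among them by estimation, and near-even shares of 5 transcripts can hold many such reads. How many was not tested.

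**Figure D5:**
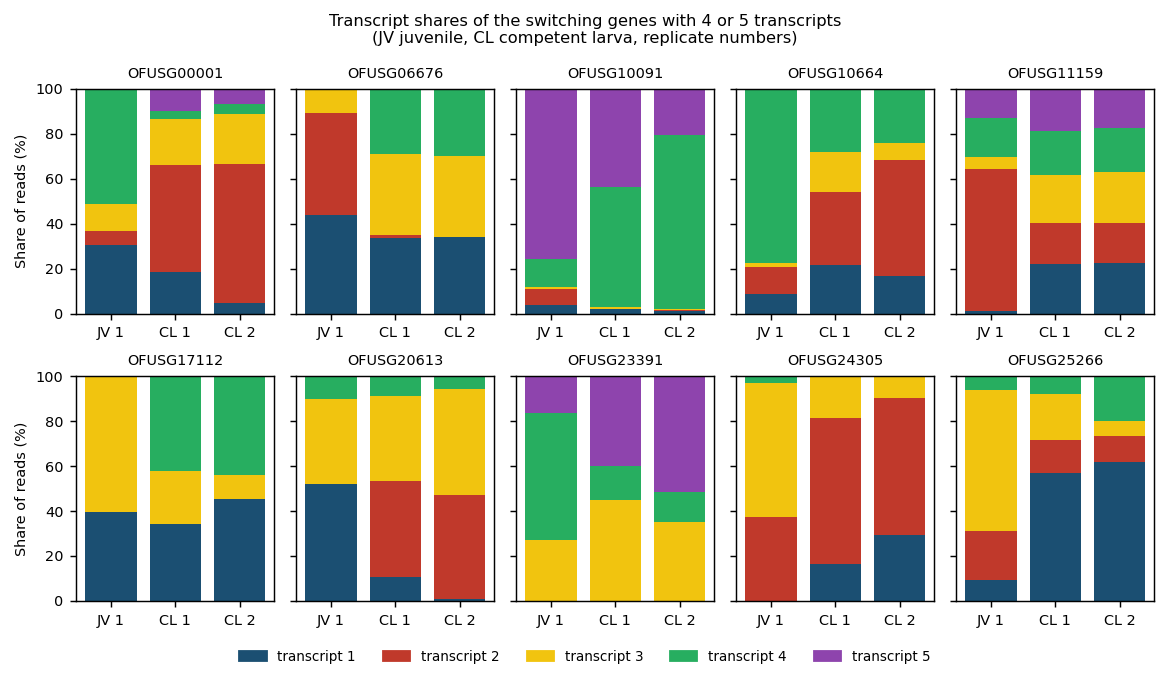
Shares of the gene's normalized reads (y axis, percent) taken by each transcript, stacked from transcript 1 at the bottom to transcript 5 at the top, for the 10 selected genes with 4 or 5 transcripts, in the juvenile (JV 1) and in competent larva replicates 1 and 2 (CL 1, CL 2). In each of the 10 genes the largest difference between the larval bars is smaller than the change to the juvenile bar, which the selection favours. The larval bars of OFUSG10091 differ by 24.0 points.

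In OFUSG00001, another gene with 5 transcripts, the leading transcript was transcript 4 in the juvenile and transcript 2 in both larval libraries. Transcript 4 had 4018 normalized reads in the juvenile, against 695 and 679, and transcript 2 had 464, against 8858 and 9239. Transcript 5 of the same gene had 2.01 in the juvenile, against 1818 and 996. Transcript 1, with 2399.8 in the juvenile, against 3421 and 678, was not distinct, since the larval libraries enclosed the juvenile value.

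OFUSG10091, also with 5 transcripts, had 795 normalized reads of transcript 4 in the juvenile, against 13368 and 25807 in the larvae. Its transcript 5 led in the juvenile with 75.9% of the reads, although its own value of 4902 was below both larval values of 10856 and 6775. In OFUSG13483, which has 3 transcripts, transcript 1 had 14783 in the juvenile, against 3201 and 3406, and it held 73.2% of the reads, against 24.7% and 25.8%. The larval libraries were within 1.21 points of each other for each transcript of OFUSG13483, whereas those of OFUSG10091 differed by up to 24.0 points.

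Of the genes with 4 transcripts, OFUSG10664 had 2506 normalized reads of transcript 4 in the juvenile, against 1142 and 1216, and its other transcripts were all below both larval values. OFUSG25266 had 776 of transcript 3 in the juvenile, against 309.7 and 141, and 113 of transcript 1, against 868 and 1311. In OFUSG24305 transcript 3 had 1744 in the juvenile, against 1552 and 883, and transcript 2 had 1081, against 5355 and 5630.2. The leading transcript differed between the stages in all of these genes.

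OFUSG23391, with 5 transcripts of which transcripts 1 and 2 were listed at 0 in all libraries, had 1113 normalized reads of transcript 4 in the juvenile, against 254 and 187. In OFUSG20613 transcript 1 had 985 in the juvenile, against 369 and 28.8. In OFUSG17112 transcript 3 had 1496 in the juvenile, against 907 and 300.4. In these genes the juvenile was above both larval libraries for the transcript that led in it, and the larval libraries did not share a leading transcript.

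OFUSG06676, with 4 transcripts, had the lowest share of a leading transcript in the juvenile. Its transcript 2 held 45.3% of the reads there, against 1.47% and 0.266%, with 451 normalized reads, against 18.7 and 3.85. Transcript 1 of this gene held 44.1%, against 33.6% and 33.9%, so these transcripts together made up most of the reads in the juvenile. Transcript 4 was listed at 0 in the juvenile, against 372 and 431.

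Transcripts listed at 0 in the juvenile with at least 100 normalized reads in both larval libraries numbered 22 over all 1872 genes, and 5 of them belonged to the 42 genes. OFUSG05631.1 was listed at 0 in the juvenile, against 1692 and 3200.2. OFUSG17112.4 was listed at 0, against 1646 and 1251. OFUSG20613.2 was listed at 0, against 1518 and 1572. The others were OFUSG24305.1, against 1358 and 2695, and OFUSG06676.4. The reverse, at least 100 in the juvenile and 0 in both larval libraries, occurred in 8 of the 4683 transcripts and in 0 of the 112. These counts are too low to compare. A value of 0 is what the estimation assigned and can also occur where its reads were given to an overlapping transcript, so no fold is given.

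Which larval library was nearer to the juvenile was also compared, since the juvenile and competent larva replicate 1 share a replicate number. For the gained transcript, replicate 1 was the nearer in 37 of the 42 genes (the exceptions being OFUSG06339, OFUSG13483, OFUSG00001, OFUSG05392 and OFUSG01209). The share in replicate 1 minus that in replicate 2 lay between -14.5 and 34.0 points, with a median of 6.29 points. Counting the reads that would have to be reassigned to turn one set of shares into the other, replicate 1 was nearer in 38 of the 42 genes and in 59.5% of all 1872 genes. This measure had a median over the 42 genes of 49.5% between the juvenile and replicate 1, 56.4% between the juvenile and replicate 2, and 8.83% between the larval libraries. Its medians over all 1872 genes were 5.89%, 7.41% and 4.52% for the same pairs. What goes with this order was not tested.

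Among the 28 genes with 2 transcripts, transcript 1 gained in 14 and transcript 2 in 14. In 26 of them a single transcript led in both larval libraries, and it was transcript 1 in 12, whereas transcript 1 led in both larval libraries in 658 of all 1235 such genes with 2 transcripts (53.3%). The identifiers of 1 pair of members were consecutive, OFUSG18859 and OFUSG18860. In OFUSG18859 transcript 2 had 4541 normalized reads in the juvenile, against 2129 and 962, and transcript 1 had 2680.4, against 14942 and 15028. In OFUSG18860 transcript 1 had 2333 in the juvenile, against 2083 and 1646, and transcript 2 had 1164, against 7020.0 and 9348. Both genes had lower totals in the juvenile, 2.21-fold lower for OFUSG18859 and 2.60-fold lower for OFUSG18860 than in the nearer larval library. Whether these neighbouring identifiers share reads was not tested.

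The threshold at 40 points falls within a continuous range. Just inside it were OFUSG17174 (40.9 points), OFUSG24305 (41.1 points) and OFUSG16515 (41.2 points). Just outside were OFUSG17721 (39.9 points), OFUSG24409 (39.8 points) and OFUSG24637 (39.7 points). In OFUSG17174 transcript 1 held 12.6% of the reads in the juvenile, against 53.5% and 75.2%, and in OFUSG17721 transcript 1 held 76.9%, against 37.0% and 27.3%. Genes on either side of the threshold thus had shifts of nearly the same size.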

How the data were processed

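Whole-animal RNA-seq of 1 juvenile and 2 competent larva libraries was used, grouped by the stage in the labels. The deposited values are a signal per transcript that the authors made by trimming reads, pseudoaligning them to their gene models with kallisto 0.46.2 and normalizing the estimated reads with DESeq2 1.30.1 (versions also in the submitters' processing notes). Low values share no common step within a library, so whole reads were not recovered, no interval is given and no count model was run. The study's methods give an approximate sequencing depth, and the depth of each library was not available here. A size factor common to a library cancels in a share. Another 24 expression columns belong to other samples and were not used, nor were the 8 ATAC-seq libraries. Shares, totals and ratios were computed with Python 3.11.15, pandas 2.3.3, numpy 2.4.6 and matplotlib 3.10.9, and the selection was tested on simulated data. Ratios past 2-fold mean past 2-fold against each larval library. The members, measures and lists were chosen with earlier results of these data known. Genes named first were the 12 with the largest change, the 6 with the highest mean total, the 3 with the largest rise and the 3 with the largest fall of the total against the nearer larval library, 3 of the 4 with the most transcripts (ties by identifier), and the 3 on each side of the threshold. Other genes named were chosen after their values were seen. Alternatives varied the share difference, the minimum sum, minor transcripts, a pseudocount of 10, the scaling and the larval library left out.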

Additional observations from a re-analysis of the deposited data

How the results depend on the processing

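With a share difference of at least 30 points, 95 genes were included (76 with a new leading transcript, median change 39.0 points), and 27 differed as much between the larval libraries. With 50 points these values were 17, 17, 54.7 points and 4. A minimum sum of 2000 gave 23 of 646 genes (22 with a new leading transcript, 0 between larval libraries), and a minimum of 100 gave 62 of 2853 (56 and 38). Leaving out each larval library gave 49 of 2014 genes and 91 of 1908 genes, with a new leading transcript in 46 and 83 of them. All 42 remained in both, as they must when a condition is removed. The 91 were found without competent larva replicate 1. The median log2 ratio of totals was -1.22 with libraries scaled to an equal sum and -1.12 with an equal median ratio, where all 1872 genes had medians of -0.10 and 0.0046, against 0.11 as deposited. Leaving out minor transcripts or adding 10 reads kept 42 genes. Of 49 alternative values 32 were within 1.5-fold of the reported count or, for a median, moved by less than the spread between the larval libraries. Own values were rescaled as alternatives chosen after seeing the data: only the lost transcript passed 2-fold in 26 genes at an equal sum, 25 at an equal median ratio, 17 without replicate 1 and 22 without replicate 2, against 23. Both transcripts passed in 12 genes under either rescaling, 20 without replicate 1 and 14 without replicate 2, against 14. Which of these groups was the larger thus depended on the larval library. Without replicate 2 the gained transcript was itself lower in 1 gene. No paired analysis was possible because the juvenile has 1 library, so the groups share 1 replicate number. The single juvenile library, the estimated division of reads among overlapping transcripts and a depth known only approximately limit every value.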
